A study of Apis mellifera with 96 samples.

Results

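Worker honey bees (Apis mellifera) of origin colony 109 were compared by behavioural role: foragers, which leave the hive for nectar and pollen, against nurses, which feed the brood. All libraries whose labels named colony 109 were taken, 16 of the 93 libraries with a column in the count table. There were 8 of foragers and 8 of nurses, 4 per role at day 7 and 4 per role at day 26. All bees were labelled wild type and untreated, and each library was made from RNA of whole bees. As 1-day-old adults the bees of all 6 origin colonies had been shared among 3 nuclear hives, so foragers and nurses of colony 109 differed in role but not in origin. Age, day of capture and time in the hive cannot be told apart. The series concerns the link between life history and susceptibility to the insecticide imidacloprid, and no bee analysed here had received it. The labels give 3 replicate numbers in each group of role and day, with a second library of number 3 marked #2, and do not say whether a library held 1 bee or a pool. P-values therefore measure the spread between these libraries, which may be partly technical.

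Young workers nurse and older workers forage, and the shift is tied to hormones as well as to age. Nurses secrete royal jelly from the hypopharyngeal glands of the head. Their fat body makes vitellogenin, a yolk protein that workers use as a nutrient store, while juvenile hormone is low. In foragers juvenile hormone is high, vitellogenin is low and the glands turn to enzymes that convert nectar sugar to honey. Since both roles were caught at each day here, role could be compared at the same age.

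The 16 libraries held 355499 to 2285200 counts on genes. Foragers averaged 1066800 ± 424390 counts and nurses 1633800 ± 498710 (SD, n = 8 each; exact permutation test within day, two-sided, adjusted p = 0.0122 over 5 library measures). The share of reads not aligned was higher in foragers, at 70.1% ± 4.45 against 65.1% ± 2.34 (exact permutation adjusted p = 0.0102). A pair of libraries stood apart. Forager day 26 replicate 3 #2 held the fewest counts, with 78.6% of its reads not aligned. Nurse day 7 replicate 3 spent 0.562% of its counts on royal jelly protein genes, against 6.80% to 16.7% in the other nurses of that day. For genes named by rule, calls over both days that were lost without either are given with that value where the role difference is described. Calls of single genes at 1 day, and of genes picked after their values were seen, were not followed in this way. Depth and alignment moved with role, and beyond a model with the share not aligned as a covariate their part in the results was not tested.

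**Figure D1:**
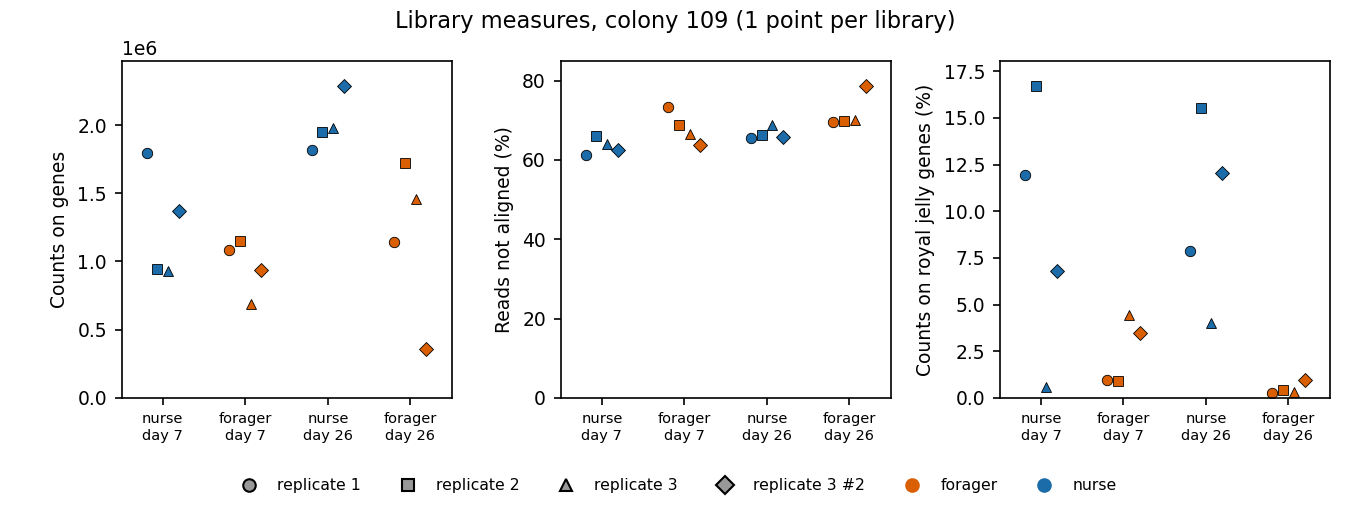
Counts on genes, share of reads not aligned and share of counts on the 9 royal jelly protein genes in each of the 16 libraries of colony 109, by role and day (colour is role, shape is replicate). Forager day 26 replicate 3 #2 has the fewest counts and the highest share not aligned, and nurse day 7 replicate 3 lies among the foragers in the royal jelly share.

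Role changed 146 of the 6611 genes tested in colony 109 (2.21%; edgeR quasi-likelihood test with day as a covariate, Benjamini-Hochberg adjusted p under 0.05). Of these, 59 were higher in foragers (0.892%) and 87 were lower (1.32%), and 77 differed by more than 2-fold. Most of the larger changes were falls, with 50 of the 77 lower in foragers. Each of the 146 had the same sign at both days, compared with 58.1% of all genes tested, a description only, since both days entered the test. Without forager day 26 replicate 3 #2 the count was 140, and without nurse day 7 replicate 3 it was 141. With the share of reads not aligned in the model, 28 genes were called, 25 of them among the 146. Of the 146, 23 have a name other than a LOC number. The 10 higher in foragers were E75, Kr-h1, CSP6, AGLU2, FAR1, TpnCIIIa, GluCl, Uvop, uzip and NFRKB. The 13 lower were Mrjp2, Mrjp3, Mrjp4, Mrjp7, Vg, Vhdl, Hex70a, Hex110, Fabp, Jhe, Est-6, Obp17 and ACSF2.

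Transcripts of several royal jelly proteins were far lower in most foragers than in most nurses. The bee genome holds 9 major royal jelly protein genes, all of which passed the filter on low counts. Of these, 4 fell (Mrjp2, Mrjp3, Mrjp4 and Mrjp7), none rose and 5 did not pass the test. Beside this count and those of the lists below, 0.892% of all genes tested were higher and 1.32% lower over both days. A single call in a short list is given for the gene and is not a result about the list. The median log2 fold change of the 9, forager minus nurse, was -3.36, beside 0.0035 over all genes tested. Since the bees were sequenced whole, fewer gland cells and less RNA per gland cell cannot be told apart, and the same holds for every tissue named below.

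Mrjp3, one of the jelly proteins fed to larvae, held 438, 449, 1699 and 504 CPM (counts relative to TMM-scaled library totals) in the foragers of day 7 and 192, 203, 219 and 747 in those of day 26. In nurses it held 22870, 27828, 597 and 9848 CPM at day 7 and 4521, 20655, 1220 and 11478 at day 26. At day 26 every nurse lay above every forager, whereas at day 7 nurse replicate 3 lay among the foragers. Its mean was 23.6-fold higher in nurses in the fitted model (log2 fold change -4.56 ± 0.78 SE, adjusted p = 0.0063), and Mrjp2 was 15.9-fold higher (-3.99 ± 0.78, adjusted p = 0.0146). With the share not aligned in the model their size was alike (-4.81 and -3.85) but their call was lost (adjusted p = 0.0801 and 0.119). Without nurse day 7 replicate 3 all 4 calls held, at adjusted p between 0.0011 and 0.0102. Mrjp7, which lies next to Mrjp2 in the Amel_HAv3.1 assembly, fell 10.6-fold (adjusted p = 0.0146).

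Mrjp1, the main protein of royal jelly, averaged 8495 ± 10354 CPM over the foragers and 60497 ± 35981 over the nurses. Its log2 fold change of -3.36 ± 0.83 just missed the threshold (adjusted p = 0.0505) and passed it without nurse day 7 replicate 3 (adjusted p = 0.0074). The remaining members did not move as a block. Mrjp5 differed by -2.16 ± 1.04 (adjusted p = 0.354), and its difference lay at day 26, as described below. Mrjp8 and Mrjp9, the last of the family in assembly order, differed by 0.03 ± 0.24 and 0.09 ± 0.28, and Mrjp6 by 0.37 ± 0.83 (adjusted p = 0.899). Mrjp4 fell by 3.84 ± 0.88 on the log2 scale (adjusted p = 0.0393), a call lost in 17 of 30 alternatives, among them the fit without forager day 26 replicate 3 #2 (adjusted p = 0.0666).

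**Figure D2:**
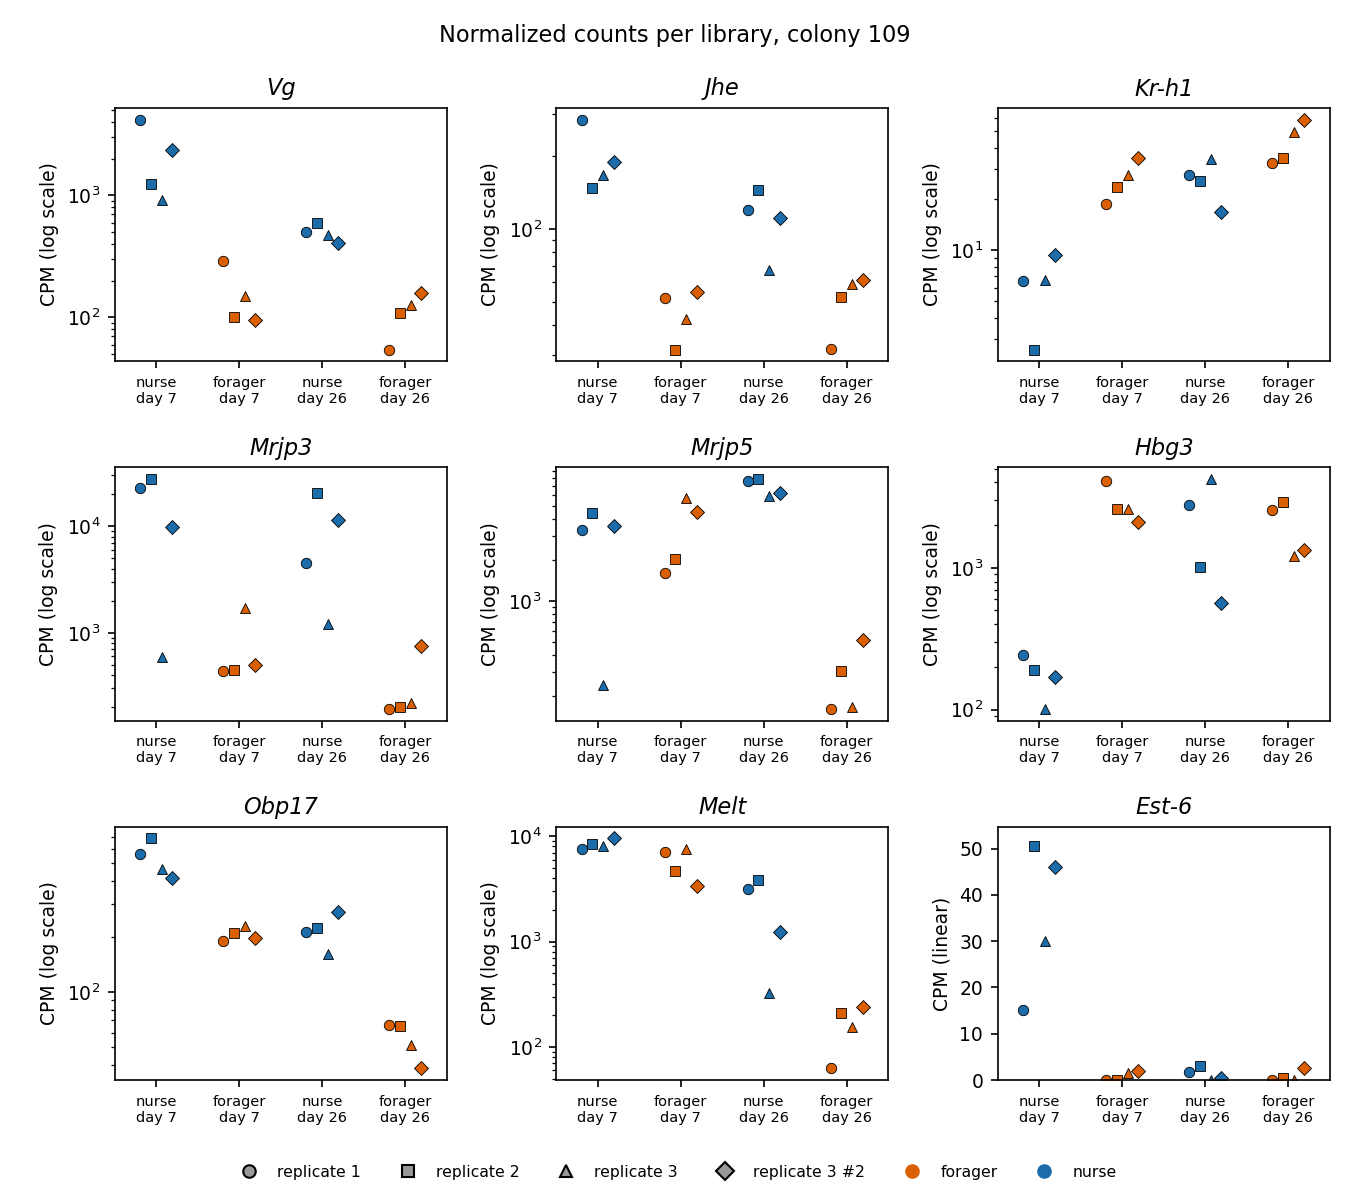
Normalized counts of 9 genes in each library of colony 109 (CPM on a log scale, Est-6 on a linear scale from 0), by role and day, with shape for the replicate. Vg and Jhe separate the roles at both days, Hbg3 and Est-6 at day 7, and Mrjp5 and Melt at day 26.

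Yolk and storage proteins of the fat body were low in foragers. Of 8 list members in the table, 7 passed the filter, 5 of them fell and the other two, Hex70c and Tsf1, differed by -1.49 (adjusted p = 0.111) and -0.70 (adjusted p = 0.517). The list's median log2 fold change was -2.97. Vitellogenin (Vg) held 292, 101, 149 and 95.0 CPM in foragers of day 7 and 54.5, 108, 126 and 158 in those of day 26. Its values in nurses were 4195, 1242, 913 and 2349 CPM at day 7 and 504, 595, 474 and 411 at day 26. No forager reached the lowest nurse at either day, and the nurses of day 26 all lay below those of day 7. Vg was 7.85-fold lower in foragers (-2.97 ± 0.42, adjusted p = 0.0013), and its call held in every alternative run.

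The hexamerins, storage proteins that carry amino acids in the haemolymph, followed. Hex70a averaged 237 ± 226 CPM over the 8 foragers and 2484 ± 2115 over the 8 nurses, and was 7.99-fold lower in foragers (adjusted p = 0.0289). That call was lost in 8 of 30 alternatives, 5 of them among the 16 that left out 1 library. Hex110 fell by 3.22 ± 0.77 on the log2 scale, close to the threshold (adjusted p = 0.0478), and its call was lost in 18 of 30 alternatives, among them 13 of the 16 that left out 1 library (adjusted p = 0.0508 without forager day 26 replicate 3 #2 and 0.0555 without nurse day 7 replicate 3). Vhdl, a very high density lipoprotein, was 11.4-fold lower (adjusted p = 0.0117) at a low level, with forager libraries between 0 and 4.78 CPM and nurse libraries between 4.76 and 166. Fabp, a fatty acid binding protein, showed the smallest change of the 5 (-1.25 ± 0.21, adjusted p = 0.0020). A pair of genes in the reference share the symbol Fabp, and the value belongs to the entry of that name in the table. With the share not aligned in the model, Vg alone of the 5 kept its call. The adjusted p there was 0.0605 for Fabp, 0.0801 for Hex70a, 0.183 for Hex110 and 0.259 for Vhdl.

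Genes of juvenile hormone signalling moved in both directions. Of 12 hormone pathway genes in the table, 5 passed the filter, of which 2 rose and 1 fell. Jhe, the esterase that breaks down juvenile hormone, held 51.5, 31.6, 42.4 and 55.0 CPM in foragers at day 7 and 31.7, 52.4, 59.2 and 61.2 at day 26. Nurses held 284, 148, 167 and 190 CPM at day 7 and 119, 145, 67.8 and 111 at day 26. All nurses lay above all foragers, although nurse day 26 replicate 3, at 67.8 CPM, was close to the highest forager, at 61.2. Jhe fell 3.09-fold (-1.63 ± 0.22, adjusted p = 0.00022), and the call held in every alternative run.

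Kr-h1, a transcription factor induced by juvenile hormone, rose. It held 18.7, 23.5, 27.8 and 35.0 CPM in foragers of day 7, against 6.59, 2.60, 6.65 and 9.38 in nurses of that day. At day 26 the foragers held 32.4, 34.6, 49.6 and 58.6 CPM and the nurses 27.6, 25.6, 34.2 and 16.7. Groups were apart at day 7 and overlapped at day 26. The change over both days was 1.27 ± 0.25 (adjusted p = 0.0057), a call lost in 3 of 30 alternatives, among them the model without day (adjusted p = 0.223). E75, a nuclear receptor that responds to ecdysone and juvenile hormone, rose by 1.35 ± 0.33 (adjusted p = 0.0286) at a mean of 9.51 ± 5.07 CPM in foragers and 3.85 ± 2.29 in nurses, and lost its call in 11 of 29 alternatives. Crzr, the corazonin receptor, differed by 0.89 (adjusted p = 0.137), and ILP-2, an insulin-like peptide, by -0.07.

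Est-6, an esterase gene that neighbours Jhe in the Amel_HAv3.1 assembly, was counted almost only in nurses of day 7. Nurses of day 7 held 15.2, 50.7, 29.9 and 46.1 CPM, which stood for 23 to 59 counts. In the 12 other libraries the gene had 0 to 5 counts, nurses of day 26 included. Its fitted log2 fold change of -4.43 ± 0.71 (adjusted p = 0.0014) rests on 0 to 2 counts in each forager. Jhe and Est-6 were one of 6 pairs of adjacent called genes, and in all 6 pairs both genes moved the same way. No background is given for either count, and the pair of Mrjp2 and Mrjp7 belongs to 1 gene family. Whether neighbours move together was not tested.

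Of 3 sugar-processing enzymes 1 rose in foragers. AGLU2 (also named Hbg1), an alpha-glucosidase, is of the enzyme family that splits sucrose during honey making. Its foragers held 3143, 3372, 1836 and 3377 CPM at day 7 and 5414, 4446, 3914 and 4771 at day 26. Nurses held 1133, 913, 995 and 648 CPM at day 7 and 3379, 3607, 3693 and 2311 at day 26. Within each day the foragers were higher, but nurses of day 26 lay above foragers of day 7 in most cases, and without day in the model the call was lost (adjusted p = 0.261). With day, AGLU2 rose 2.13-fold (1.09 ± 0.21, adjusted p = 0.0056). Hbg2 and Hbg3, of the same family, were not called over both days, at 0.47 ± 0.33 and 1.95 ± 0.81 (adjusted p = 0.266 for Hbg3).

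FAR1, named as a fatty acyl-CoA reductase, rose 2.05-fold (1.03 ± 0.19, adjusted p = 0.00295). Its call was lost in 2 of 30 alternatives, without day (adjusted p = 0.243) and with the share not aligned in the model (adjusted p = 0.116). Its foragers of day 7 spanned 108 to 122 CPM and the nurses 36.4 to 65.4, and at day 26 the roles spanned 188 to 385 and 67.2 to 184. ACSF2, an acyl-CoA synthetase family member, fell from 42.8 ± 13.1 CPM in nurses to 22.5 ± 6.56 in foragers (adjusted p = 0.0209). Both bear on fatty acid handling, and they moved in opposite directions.

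Among 28 genes of neuronal signalling in the table, 11 passed the filter, and 1 of these, GluCl, rose. GluCl encodes the glutamate-gated chloride channel. It held 32.0, 44.6, 30.7 and 38.0 CPM in foragers of day 7 and 50.8, 52.4, 43.0 and 30.6 in those of day 26. The nurses held 12.5, 22.1, 16.6 and 18.8 CPM at day 7 and 28.1, 34.5, 29.0 and 23.4 at day 26. Its rise of 0.84 ± 0.16 (adjusted p = 0.0052) kept its call in every alternative run. The 10 others ran from -0.28 for the octopamine receptor Oa1 to 1.15 for Cac, a voltage-gated calcium channel (adjusted p = 0.241). Of the 11, 10 were positive, with a median of 0.48, beside 3341 positive among all 6611 genes tested. Members were counted in the same libraries, so their signs are not independent. For the nicotinic acetylcholine receptor, the target of imidacloprid, 4 of 10 subunits passed the filter and none was called. nAChRa9 and nAChRb2 differed by 0.76 ± 0.29 and 0.73 ± 0.29 (adjusted p = 0.222 for each), and nAChRa8 and nAChRa4 by 0.20 and 0.03.

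Of 3 opsins tested, the ultraviolet opsin Uvop rose by 0.71 ± 0.19 (adjusted p = 0.0464). Its call was lost in 18 of 30 alternatives, with an adjusted p of 0.0747 without forager day 26 replicate 3 #2 and 0.0633 without nurse day 7 replicate 3. Its foragers spanned 21.9 to 66.3 CPM and its nurses 17.7 to 28.4. Blop, the blue opsin, differed by 0.73 ± 0.30 (adjusted p = 0.232) and the long-wavelength opsin Lop1 by 0.33 ± 0.42. None of 35 odorant and gustatory receptor genes in the table passed the filter, so these receptors were below what the depth could test in whole bees.

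Of 22 odorant-binding and chemosensory proteins tested, 1 fell and 1 rose, beside 1.32% and 0.892% of all genes tested. Obp17 had the second smallest p of all genes. It held 189, 210, 229 and 197 CPM in foragers and 566, 685, 465 and 419 in nurses at day 7, and 65.6, 65.1, 51.4 and 38.2 in foragers and 211, 222, 161 and 273 in nurses at day 26. The roles were apart at each day and both roles were lower at day 26 than at day 7. Its fall of 1.66 ± 0.16 on the log2 scale (adjusted p = 1.64e-06) lost its call only without day in the model (adjusted p = 0.10). CSP6 rose from 10.2 ± 3.92 CPM in nurses to 21.6 ± 5.13 in foragers (1.09 ± 0.23, adjusted p = 0.0103), a call lost in 2 of 30 alternatives. Obp14 differed by -2.86 ± 0.74 and was not called over both days (adjusted p = 0.0625).

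**Figure D3:**
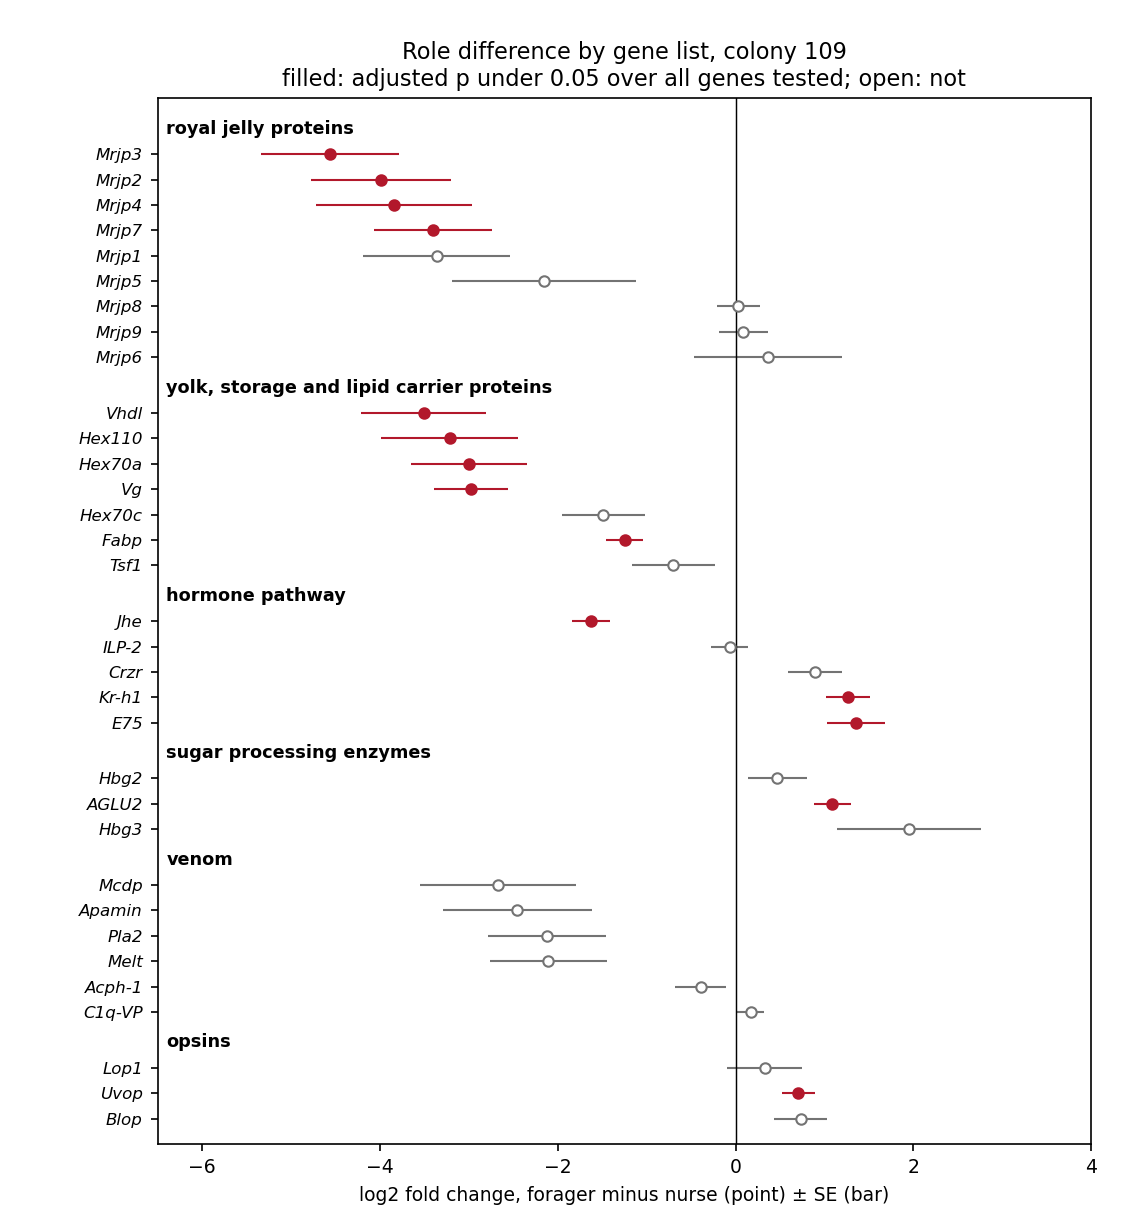
Log2 fold change of forager against nurse (point) with its SE (bar) for every tested member of 6 gene lists in colony 109, with day as a covariate. Filled points passed an adjusted p of 0.05 over all 6611 genes and open points did not; in the royal jelly list the 4 filled points lie between -4.56 and -3.40, while Mrjp6, Mrjp8 and Mrjp9 lie near 0.

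Troponin C of type IIIa (TpnCIIIa), a calcium sensor of muscle, was the 1 called gene of 8 muscle proteins. Its rise of 0.94 ± 0.24 (adjusted p = 0.0440) came with day 7 nurses at 118 to 235 CPM, whereas the 12 other libraries held 330 to 725. Its call was lost in 15 of 30 alternatives, with an adjusted p of 0.0770 without nurse day 7 replicate 3. The 7 other muscle genes ran from -0.55 to 0.24. The axon guidance gene uzip and the gene NFRKB rose 1.5-fold each, to 91.9 ± 22.2 CPM from 61.0 ± 15.6 for uzip (adjusted p = 0.0242) and to 58.2 ± 16.2 from 38.4 ± 8.84 for NFRKB (adjusted p = 0.0308).

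Several of the steadiest differences lay in genes that carry only a LOC number, for which no product name was at hand. LOC724386, named after its values were seen, had the smallest p of all genes. It held 780, 935, 1843 and 1475 CPM in foragers of day 7 and 446, 223, 399 and 500 in those of day 26. The nurses held 12879, 10449, 12472 and 9389 CPM at day 7 and 2592, 7530, 2418 and 3268 at day 26. Every nurse exceeded every forager, and nurse day 7 replicate 3, low in royal jelly transcripts, was as high as the other nurses of its day. Its fall was 9.53-fold (-3.25 ± 0.26, adjusted p = 1.09e-07). Together with Vg and Jhe it was one of 12 called genes with no overlap between the roles over all 16 libraries. Of the 12, 10 were lower in foragers and 2 were higher, namely LOC410432 and LOC552734. Over all genes tested 18 did not overlap (0.272%), 14 of them lower in foragers (0.212%) and 4 higher (0.0605%).

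By size, the largest falls among LOC genes were LOC727522 (-4.09 ± 0.53, adjusted p = 0.00095) and LOC724749 (-3.84 ± 0.45, adjusted p = 0.00026), both called in every alternative run. LOC727522 averaged 38.2 ± 21.1 CPM in foragers and 739 ± 673 in nurses. The largest rise, LOC113219265, went from 221 ± 132 CPM in nurses to 2171 ± 3640 in foragers (3.03 ± 0.73, adjusted p = 0.0478), with 11115 CPM in forager day 26 replicate 3 #2 alone. Without that library it stood at 2.12 (adjusted p = 0.0588), and with the share not aligned in the model at 1.58 (adjusted p = 0.373). The call of LOC113219265 was lost in 17 of 30 alternatives, 12 of them among the 16 that left out 1 library. LOC411894 rose by 2.86 ± 0.54 (adjusted p = 0.0106), LOC727193 by 2.43 ± 0.50 (adjusted p = 0.0178) and LOC726995 by 2.27 ± 0.46 (adjusted p = 0.0068). Their calls were lost in 2 of 30, 4 of 30 and 2 of 29 alternatives, in that order. LOC726611 rose 3.91-fold (1.97 ± 0.23, adjusted p = 2.27e-05), from 16.4 ± 8.34 CPM in nurses to 69.1 ± 42.6 in foragers, and was called in every alternative run.

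In the lists that follow no gene was called in either direction over both days, where 2.21% of all genes were called, so a count of 0 in lists of this size is near the background. All 13 mitochondrially encoded genes were lower in foragers, with a median of -0.43, and all 7 ribosomal proteins tested were lower, with a median of -0.27, but none passed. Over all 6611 genes tested 3270 were lower, and signs of genes counted in the same libraries are not independent. The share of counts on mitochondrial genes was 5.63% ± 2.20 in foragers and 6.10% ± 1.93 in nurses (exact permutation p = 0.513). No call was made among 8 nuclear subunits of oxidative phosphorylation, 4 heat shock chaperones, 11 antioxidant enzymes, 7 immune genes, 8 cuticle proteins, 3 cytochrome P450s, 2 clock genes or 6 venom genes. The immune values were uneven within nurses: Apid1, an apidaecin antimicrobial peptide, averaged 1779 ± 3337 CPM in nurses, of which nurse day 26 replicate 3 held 9933, and the recognition protein Pgrp-s2 stood at 19278 in the same library. Vg in that library lay within the range of its group.

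At day 7 alone, 85 genes were called (1.29%; 26 higher in foragers, 0.393%, and 59 lower, 0.892%), and at day 26 alone 33 (0.499%; 12 higher, 0.182%, and 21 lower, 0.318%). These counts rest on 4 libraries a group and on single libraries among them. Leaving out 1 library at a time gave 52 to 99 calls at day 7 and 8 to 58 at day 26. At day 7 the low counts were 52 without forager day 7 replicate 3 #2 and 53 without replicate 2 of the same group. At day 26 the counts were 8 without forager replicate 3, 16 without forager replicate 3 #2, 15 without nurse replicate 1, 14 without nurse replicate 3 #2, 58 without nurse replicate 3 and 50 without nurse day 7 replicate 3. The days shared 9 called genes, 10.6% of the day 7 list and 27.3% of the day 26 list. Obp17, LOC726611, LOC724749 and LOC724386 were among them. Below, groups are said not to overlap for single genes; over all genes tested this held for 420 at day 7 (6.35%; 2.62% with foragers higher and 3.74% lower) and for 549 at day 26 (8.30%; 3.83% and 4.48%).

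Of the yolk, storage and lipid carrier list, 4 of 7 tested genes fell at day 7 and none was called at day 26. Vg (-3.77 ± 0.50), Hex110 (-4.63 ± 0.92), Vhdl (-4.76 ± 0.95) and Fabp (-1.54 ± 0.29) fell at day 7, and at day 26 their values were -2.16 ± 0.47, -1.78 ± 0.83, -2.27 ± 0.91 and -0.95 ± 0.29. At day 26 Vg was just over the threshold (adjusted p = 0.0529), while Hex110, Vhdl and Fabp stood at 0.439, 0.339 and 0.159. Jhe fell by 2.13 ± 0.27 at day 7 and differed by -1.13 ± 0.26 at day 26 (adjusted p = 0.0510). Obp14, an odorant-binding protein, fell by 4.48 ± 0.75 at day 7, from nurse values of 1106 to 2906 CPM to forager values of 63.2 to 126. Cyp4g11, a P450 of cuticular hydrocarbon synthesis, fell at day 7 by 1.35 ± 0.26 and differed by 0.27 ± 0.26 at day 26. None of the day differences of these 7 genes passed the interaction test (adjusted p = 0.131 to 0.822).

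Hbg3, the alpha-glucosidase III of the hypopharyngeal gland, rose at day 7. Foragers held 4101, 2610, 2579 and 2113 CPM against 241, 190, 101 and 169 in nurses of that day. At day 26 foragers held 2560, 2926, 1210 and 1339 CPM and nurses 2771, 1020, 4229 and 565. The roles were thus far apart at day 7 and overlapped at day 26, where nurse values ran from below the lowest forager to above the highest. The change was 4.02 ± 0.56 at day 7 (adjusted p = 0.0011) and -0.09 ± 0.49 at day 26. The difference between the days, -4.12 ± 0.73, stood at an adjusted p of 0.0548, as did those of TpnCIIIa (-1.60 ± 0.31) and LOC727193 (-2.75 ± 0.50).

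Of 6 venom genes tested, 2 fell at day 26, Melt and Apamin, and none was called at day 7. Melt, which encodes the venom peptide melittin, held 62.6, 209, 155 and 240 CPM in foragers of day 26 and 3174, 3834, 327 and 1226 in nurses. At day 7 foragers held 7114, 4732, 7653 and 3357 CPM and nurses 7491, 8459, 8135 and 9548. The foragers of day 26 were below all 12 other libraries. Melt fell by 3.69 ± 0.61 at day 26 (adjusted p = 0.0122) and differed by -0.56 ± 0.55 at day 7, and Apamin, a venom neurotoxin, fell by 4.48 ± 0.78 at day 26 (adjusted p = 0.0229). Their interactions did not pass (adjusted p = 0.306 for each). The other venom genes were not called at day 26: Mcdp stood at -5.96 (adjusted p = 0.063) and Pla2 at -4.70 (adjusted p = 0.103), while Acph-1 stood at -0.50 (adjusted p = 0.682) and C1q-VP at 0.16 (adjusted p = 0.840).

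Mrjp5 was the 1 royal jelly gene called at day 26, but its change there was not the largest of the family. Mrjp1, Mrjp2, Mrjp3 and Mrjp4 differed by -4.78, -4.84, -4.82 and -5.10 at day 26 without a call (adjusted p = 0.0535, 0.0748, 0.0950 and 0.0950). Mrjp7 differed by -3.67 (adjusted p = 0.145), and Mrjp6, Mrjp8 and Mrjp9 by -1.51, -0.04 and -0.40. Mrjp5 held 161, 306, 167 and 515 CPM in foragers of day 26 and 7610, 7831, 5898 and 6187 in nurses. At day 7 the foragers held 1606, 2017, 5676 and 4446 CPM and the nurses 3326, 4441, 243 and 3529. Nurse day 7 replicate 3 was again near the foragers of day 26. Mrjp5 fell by 4.59 ± 0.74 at day 26 (adjusted p = 0.0129) and differed by 0.25 ± 0.64 at day 7, with an interaction of -4.85 ± 0.95 (adjusted p = 0.108).

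Only 2 of the 6611 genes passed the interaction test in colony 109 (0.0303%, 1 in each direction at 0.0151%; 473 at an unadjusted p under 0.05). LOC552277 held 142, 121, 167 and 120 CPM in foragers and 192, 294, 111 and 239 in nurses at day 7, and 197, 224, 301 and 252 in foragers and 90.5, 110, 60.9 and 73.4 in nurses at day 26. The roles overlapped at day 7 and were apart at day 26, with foragers higher. Its interaction was 2.15 ± 0.35 (adjusted p = 0.0239). LOC113218518 held 3744, 2596, 3429 and 5505 CPM in foragers and 1685, 3157, 208 and 1952 in nurses at day 7, and 442, 624, 220 and 441 in foragers and 5802, 5764, 6894 and 4440 in nurses at day 26. Foragers were lower than all nurses at day 26, and the interaction was -4.85 ± 0.77 (adjusted p = 0.0391). Of the 16 fits that left out 1 library, 6 called no gene, namely those without forager replicates 1, 2 or 3 #2 or nurse replicate 3 #2 of day 7, or forager replicates 3 or 3 #2 of day 26. The highest count, 7, came without nurse replicate 3 or 3 #2 of day 26.

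**Figure D4:**
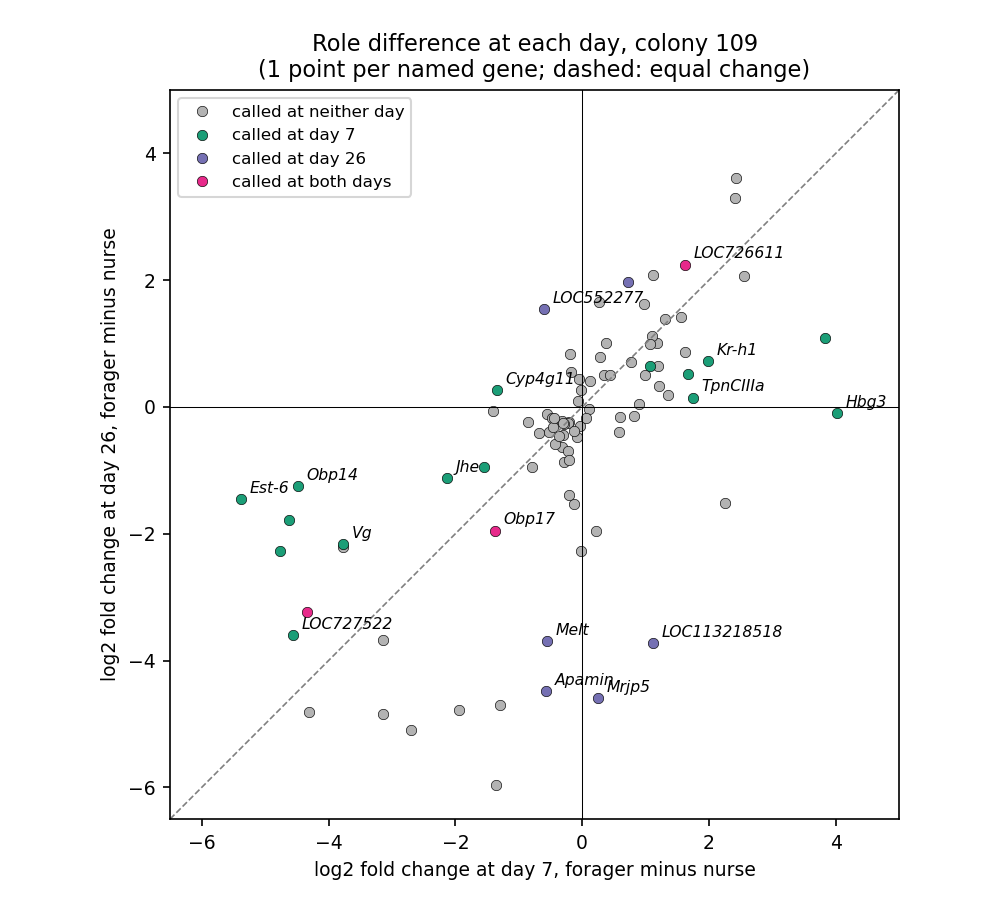
Log2 fold change of forager against nurse at day 7 (x axis) and at day 26 (y axis) in colony 109, 1 point for each of the 94 genes named by rule, coloured by the days at which the gene was called. Hbg3 lies at 4.02 and -0.09, Melt, Apamin and Mrjp5 lie near 0 on the day 7 axis and below -3.6 on the day 26 axis, and Obp17 and LOC726611 lie near the dashed line of equal change.

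The other 5 colonies, 76 libraries fitted on their own, gave values from other libraries than those of colony 109. The bees had shared hives and days of capture with those of colony 109, so hive and day are common to both. There 1821 of 6758 genes were called (26.9%). The 146 genes called in colony 109 had the same sign there in every case, compared with 70.1% of the 6560 genes tested in both, and 139 of them (95.2%) were called. Taken colony by colony, in the model of all 92 libraries that includes colony 109, 136 (93.2%) had that sign in all 5. No share over all genes was taken for this colony-by-colony count, and the 70.1% is not its background. In the other direction, 139 of the 1792 genes called there and tested here (7.76%) were called in colony 109, while 1617 (90.2%) had the same sign. The count in colony 109 was made on 16 libraries and that in the others on 76.

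By gene, Vg had a log2 fold change of -2.97 ± 0.42 in colony 109 and -3.10 ± 0.37 in the others. Single colonies ran from -3.89 to -1.97 for Vg in the model of all 92 libraries. Mrjp3 stood at -4.56 and -5.01 ± 0.41, Jhe at -1.63 and -1.41 ± 0.22, Kr-h1 at 1.27 and 1.15 ± 0.19, and Fabp at -1.25 in both. Hbg3, not called in colony 109, had 1.95 ± 0.81 here and 1.92 ± 0.22 there. CSP6, at 1.09 ± 0.23 here, had 0.29 ± 0.15 there, with a difference of 0.80 (95% interval 0.12 to 1.48, adjusted p = 0.716). The 7 genes not called in the other colonies were CSP6, NFRKB, Est-6, LOC412470, LOC100577014, LOC726110 and LOC100577823, and the value of Est-6 there had no usable error. The median size of the 146 changes was 1.03 on the log2 scale here and 0.71 there. They were chosen for passing the test in colony 109, so their larger size here is part of the choice.

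No gene of 6753 differed between the role change of colony 109 and the mean role change of the other 5 colonies at an adjusted p under 0.05 (0.00%; edgeR, 390 at an unadjusted p under 0.05; no other tool was run on this contrast). The 3 genes with the smallest p were LOC412381, LOC551437 and LOC413247. LOC412381 held 33.6 to 63.1 CPM in foragers and 29.9 to 42.1 in nurses of colony 109 (0.42 ± 0.15) and went the other way elsewhere (-0.26 ± 0.06), for a difference of 0.67 ± 0.15 (adjusted p = 0.141). LOC551437 and LOC413247 had differences of 0.99 ± 0.24 each (adjusted p = 0.185). The count was 5 without forager day 26 replicate 2, 2 without forager day 26 replicate 3, 1 without nurse day 7 replicate 3, and 0 without any other library of colony 109. The interval of the difference varied by gene: for Vg it ran from -1.34 to 1.59, for Mrjp3 from -1.11 to 2.00, for Kr-h1 from -0.64 to 1.04, for Obp17 from -1.15 to 0.18, for GluCl from -0.15 to 0.72 and for Fabp from -0.58 to 0.56. For Vg and Mrjp3 these intervals hold differences of 1 log2 unit in both directions, for Kr-h1 upward only and for Obp17 downward only. A difference of that size from the other colonies is therefore not excluded there. The intervals are per gene and not adjusted over the genes tested.

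**Figure D5:**
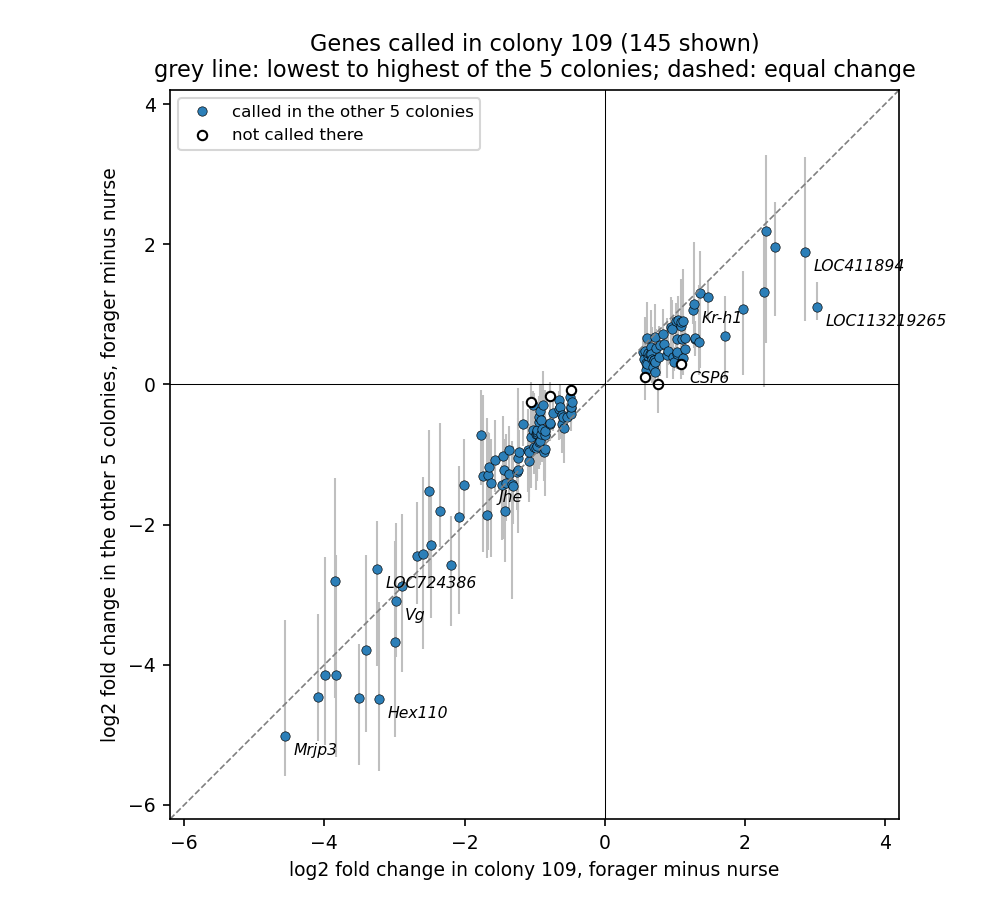
Log2 fold change of forager against nurse in colony 109 (x axis) and in the other 5 colonies fitted without it (y axis) for 145 of the 146 genes called in colony 109, leaving out Est-6. Grey lines span the lowest to the highest of the 5 colonies in the model of all 92 libraries, and the dashed line marks equal change. All points lie in the quadrants of shared sign, and open points mark the genes not called in the other colonies.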

How the data were processed

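The authors deposited counts, whole numbers of reads per gene with no normalization, for 9935 genes. FastQC, HISAT2, SAMtools and DESeq2 are named in the submitters' processing notes, with no versions. Which counting program, genome build and annotation were used is not given in the sources used here, and coordinates are therefore left out. Libraries were made with a TagSeq protocol, which reads a tag near the 3' end of transcripts, per the labels' protocols. In colony 109 from 61.3% to 78.6% of reads were not aligned and 5.01% to 17.3% fell on genes; the entries for reads assigned to no gene stayed out of totals and tests. Reads aligned to more than 1 place were not assigned, which can lower genes with close copies, such as the royal jelly genes. A gene with no counts is limited to about 3 counts, 1.25 to 7.65 CPM by library, counting error only.

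Genes were kept by filterByExpr (minimum count 10 over role and day). Counts were scaled by TMM and fitted by edgeR 4.0.16 in R 4.3.3 (glmQLFit with legacy=FALSE and robust=TRUE) on the 16 libraries with role and day, and with 1 mean per role and day for the contrasts at each day and their interaction. P-values were adjusted by the Benjamini-Hochberg method across the tested genes, threshold 0.05. Log2 fold changes are forager minus nurse ± SE. The difference from the other colonies came from 1 model of 92 libraries, leaving out 1 of another colony with under 10% of the median total, and the other 5 colonies were also fitted alone. The 4 pairs of libraries that share a number had a median chi-square per gene of 11.6, against 13.4 for 20 other pairs. Within its group the shared-number pair was the closest in foragers of day 7 (6.66). It was among the closer ones in foragers of day 26 (6.75) and nurses of day 7 (16.4), and among the furthest in nurses of day 26 (63.8). These values do not settle whether such libraries are independent, and they were kept separate. Tests were tried on simulated data. The alternatives, listed in the closing section, include DESeq2 1.42.0.

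Named genes are, among calls with 1 sign at both days and at least 5 CPM, the 8 largest in each direction, the 8 largest in each direction whose name is no LOC number, up to 4 of each list with the smallest p, and a fixed set (Vg, Mrjp1 to Mrjp9, Hbg3, Kr-h1, Jhe, E75, nicotinic subunits). For the interaction and the difference from the other colonies they are the called genes, or the 3 with the smallest p. LOC724386, uzip, NFRKB, ACSF2 and the genes named for absent overlap or as not called elsewhere were picked after their values were seen. The lists and comparisons were chosen with earlier results of these data known. Gene names are the table's own, and the order of neighbours is that of the RefSeq annotation of Amel_HAv3.1.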

Additional observations from a re-analysis of the deposited data

Results flagged for a closer look

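In groups of 4 libraries, values far from the other 3 were looked for in 40 genes and 5 library measures by Dixon's 95% criterion, which chance meets in about 1 group of 20. Of 160 gene groups and 20 groups of library measures, 15 met it. Forager day 26 replicate 3 #2 accounted for 7 of them. It was high in Mrjp1 (5049 CPM), Mrjp2 (1433), Mrjp3 (747), Mrjp4 (102), LOC113219265 (11115) and LOC409314 (63.7), and in the share of reads not aligned (78.6%). Forager day 7 replicate 3 was high in Mrjp3 (1699 CPM) and low in AGLU2 (1836) and nAChRa4 (1.46). Nurse day 7 replicate 3 was high in Mrjp8 (109 CPM), while its Mrjp1 to Mrjp7 were the lowest of the 4 nurses of its day. Nurse day 26 replicate 3 was high in nAChRb2 (61.5 CPM) and in the share of reads not aligned (68.9%). The others were Mrjp9 in forager day 26 replicate 2 (223 CPM) and Uvop in nurse day 7 replicate 1 (23.7 CPM).

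The role difference changed between the days, by the interaction test, in LOC552277 (2.15 on the log2 scale, day 26 minus day 7) and LOC113218518 (-4.85).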

How the results depend on the processing

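The count of genes that differed by role was 146, and alternatives chosen with the design gave 301 with the DESeq2 Wald test, 379 with all colonies in one model, 80 without day, 28 with the share of reads not aligned as a covariate and 57 without the 4 libraries marked #2, where fewer samples are fitted. The 28 held 25 of the 146 genes and the 57 held 54. Leaving out 1 library at a time gave 107 to 192. Other scalings, filters and fits gave 145 to 186. At day 7 the DESeq2 count was 141 and at day 26 it was 120, against 85 and 33 in edgeR, and leaving out libraries gave 52 to 99 (53 without forager day 7 replicate 2) and 8 to 58 (14 without nurse day 26 replicate 3 #2). The interaction gave 1 call with no filter, 6 at a minimum count of 20, 23 in DESeq2 and 0 to 7 without single libraries, against 2. The difference from the other colonies gave 0 to 5. Replicate numbers do not pair the samples by the labels: over 24 same-numbered pairs the correlation of deviations ran from -0.144 to 0.155, and 4 of 16 libraries correlated best with their own number. With the replicate number as a block the role count was 143, with 131 shared, and with the #2 libraries as a level of their own it was 118, with 110 shared; the difference from the other colonies stayed at 0 under the block. No named gene that was called, in the main fit or in an alternative, reversed its direction between them. Some genes called in neither changed sign, such as Mrjp6 (-0.12 to 0.85) and nAChRa8 (-0.42 to 0.31). Of 30 named genes called for role, 7 kept the call in all of them (Vg, Jhe, GluCl, Est-6, LOC724749, LOC726611 and LOC727522) and 23 lost it in at least 1; 19 of 64 not called gained it. Genes near the threshold, such as Hex110, Uvop, Mrjp4 and TpnCIIIa, are the least settled, and the cause of the lower count with the share not aligned was not tested.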
